A study of Rattus norvegicus with 63 samples.

Results

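Acetamide (AA) and Methylcarbamate (Mcarb) are the small amides among the 15 compounds of a rat liver carcinogenicity study, and their protein profiles were taken from 6 of its 45 treated animals, 3 per compound. They were chosen by the treatment label and compared, each alone and pooled, with the 3 vehicle animals of control set 1, which the labels give as the reference of both. All 158 analytes were read in each of these 9 animals, of 63 in the whole series. The study's question was whether molecular profiles after short dosing tell non-genotoxic carcinogens from other compounds, and it counted both amides as non-genotoxic carcinogens.

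All animals were male rats of the strain Wistar Hanover, of the colony Crl:WI[Gl/BRL/Han]IGS BR, and were 8 to 10 weeks old at assignment. Acetamide was given at 3000 mg/kg per day and Methylcarbamate at 400 mg/kg per day, both by gastric gavage for 14 days. Control set 1 received Methylcellulose, the vehicle, by the same route for the same time. Doses therefore differed between the compounds, so their values are given side by side without a test of one against the other. Both comparisons used the same 3 control animals, so their results are not independent of each other. Per the study's methods, the 3 animals of a compound had been picked from a larger dose group for showing histopathological change, and each value therefore describes selected animals.

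Acetamide is the amide of acetic acid. Methylcarbamate is the methyl ester of carbamic acid and carries the same unsubstituted amino group on a carbonyl carbon, with an oxygen atom between that carbon and the methyl group. Both are known to cause liver tumors in rats on long dosing without being classed as DNA-reactive. In the liver, compounds of this kind are commonly followed through drug-metabolizing cytochrome P450 enzymes, growth and stress kinases, and proteins that control entry into the cell cycle. The reverse-phase protein arrays used here print each lysate as spots and probe every array with an antibody against 1 protein or 1 modified form, so the relative fluorescence intensity (RFI) can be compared between animals for the same analyte but not between analytes.

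No analyte passed the test in either compound or in both pooled. With limma and Benjamini-Hochberg adjustment over 158 analytes, 0 were called at an adjusted p below 0.05, and the smallest adjusted p was 0.993 for Acetamide, 0.607 for Methylcarbamate and 0.307 for the pool. An unadjusted p below 0.05 was found for 5 analytes in Acetamide (3.16% of those tested, 1 higher and 4 lower), 4 in Methylcarbamate (2.53%, 2 higher and 2 lower) and 3 in the pool (1.9%, 1 higher and 2 lower). Among the analytes that led these lists were glutamine synthetase (GLUL), MKI67, ERK1 phosphorylated at T202/Y204 and a ribosomal protein S6 antibody. Another was deposited as CDKN1B phosphorylated at serine 10 (CDKN1B_P-S10), a name that was not secure. Against all 12 Methylcellulose controls of the series in place of set 1, CDKN1B_P-S10 was called lower in each compound and in the pool. The Acetamide call was lost when 1 of these controls was left out. In the authors' table of log2 values, the row of that name went the other way.

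Most of the measured liver proteome lay close to the control level. The log2 fold change (treated over control set 1) was under 0.5 in size for 148 analytes in Acetamide, 149 in Methylcarbamate and 149 in the pool, and its median over all analytes was -0.03, -0.00 and -0.02. The 95% confidence interval of the fold change lay wholly within a 2-fold change for 141 analytes in Acetamide, 139 in Methylcarbamate and 145 in the pool. The median half-width of this interval was 0.43 on the log2 scale for each compound and 0.38 for the pool, so a small change of a single protein was not detectable with these animals.

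**Figure D1:**
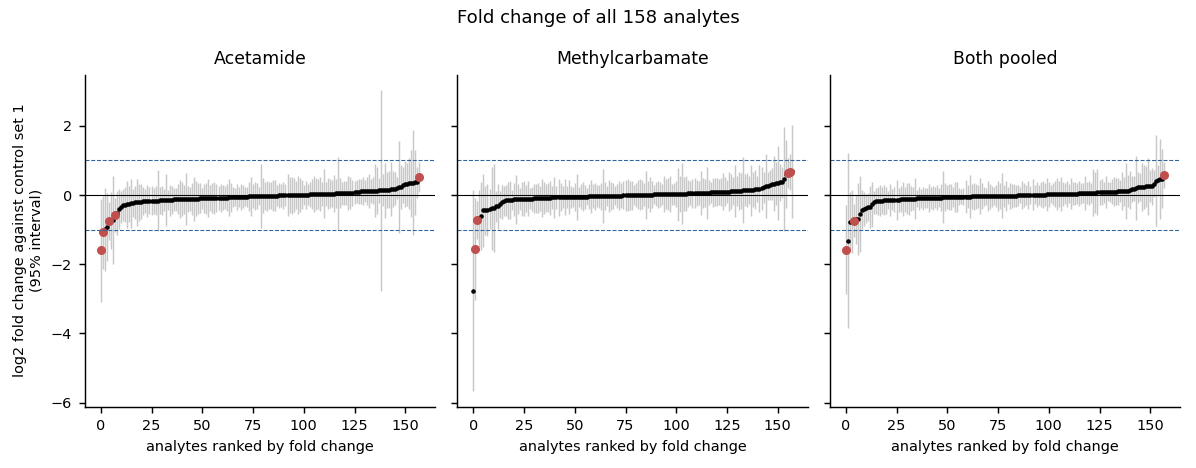
Log2 fold change of each of the 158 analytes against control set 1 (y axis), ranked from lowest to highest (x axis), for Acetamide, Methylcarbamate and both pooled. Grey lines are 95% confidence intervals, red points have an unadjusted p below 0.05 (5, 4 and 3 analytes) and dashed lines mark a 2-fold change. Most points lie near 0, and the widest interval in each panel belongs to ACTB, whose signal fell to 0 or below in some animals.

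Before the single proteins, the animals were compared with each other. Median RFI over the analytes was 0.496 to 0.637 in the 9 animals, and 4 of their 1422 values were at or below 0. The 3 animals of a compound did not lie on the same side of the controls. In Acetamide, animal 1 had 72 analytes below the range of control set 1 and 18 above it, and animal 2 had 49 below and 25 above, whereas animal 3 had 19 below and 64 above. In Methylcarbamate, animal 1 had 84 below and 9 above, whereas animal 2 had 13 below and 59 above and animal 3 had 32 below and 52 above. The part of these animal-wide differences in the results was not tested. Centring each animal on its median left 0 calls in each comparison and gave 7, 5 and 8 analytes at an unadjusted p below 0.05. The smallest adjusted p (limma) was then 0.396 for Acetamide, 0.181 for Methylcarbamate and 0.0578 for the pool, the last just above the threshold. Control set 1 did not stand apart from the other Methylcellulose sets by the same test, with 0 analytes called and 0 at an unadjusted p below 0.05, although with 3 animals per set this does not show that the sets were alike. Among the 12 Methylcellulose controls, animal 1 of set 6 had the highest median RFI, at 0.882 against 0.504 to 0.641 in the other 11.

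**Figure D2:**
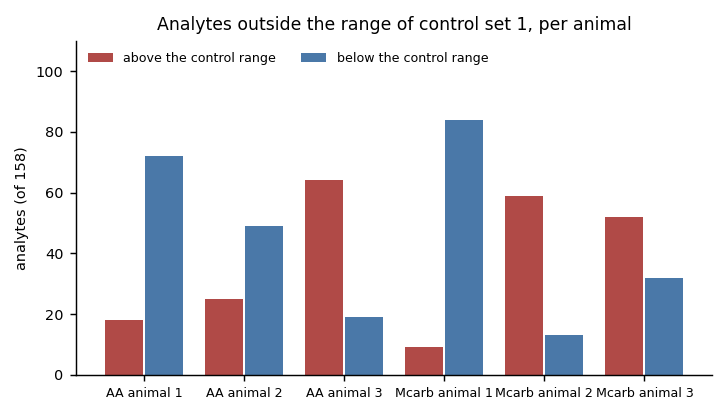
Number of the 158 analytes (y axis) that lay above or below the range of the 3 animals of control set 1, for each treated animal (x axis). Animals 1 and 2 of Acetamide and animal 1 of Methylcarbamate had more analytes below the range, and the other 3 animals had more above it.

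Hepatocyte markers were checked against the tissue label. Of 7 hepatocyte markers 6 were measured, by 9 analytes, and 0 of 7 markers of other liver cell types were, so the cell make-up of the tissue could be checked on the hepatocyte side only. All 9 analytes read above 0 in each of the 9 animals and 0 passed the test in the pool, where 4 were higher and 5 lower, with log2 fold changes from -1.58 for GLUL to 0.48 for CYP2E1_2. HNF4A, a transcription factor that maintains hepatocyte identity, read 2.13, 2.11 and 2.15 RFI in Acetamide, 1.78, 2.06 and 2.24 in Methylcarbamate and 2.20, 2.13 and 1.90 in control set 1. The HNF4A values overlapped between the groups, and the pooled log2 fold change was -0.00 with a 95% interval of -0.30 to 0.30. In whole tissue, less of a protein per cell and fewer cells of the type that makes it cannot be told apart.

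CDKN1B, also known as p27, holds back the cyclin-dependent kinases, and serine 10 is its main phosphorylation site in resting cells. The analyte named CDKN1B_P-S10 read 1.49, 2.87 and 1.94 RFI in Acetamide, 2.09, 2.52 and 1.67 in Methylcarbamate and 3.83, 4.03 and 2.59 in control set 1. All 3 Methylcarbamate animals were below the controls, whereas animal 2 of Acetamide was above the lowest control. Mean RFI was 2.10 ± 0.70 (SD, n = 3) and 2.09 ± 0.43 (SD, n = 3) compared with 3.48 ± 0.78 (SD, n = 3) in the controls.

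For CDKN1B_P-S10 the log2 fold change was -0.75 (SE 0.27) in Acetamide and -0.73 (SE 0.27) in Methylcarbamate. In the pool it was -0.74 with a 95% interval of -1.22 to -0.26 (limma, unadjusted p = 0.00305, adjusted p = 0.307). Of the 6 treated animals 5 read below all 12 Methylcellulose controls, which spanned 2.59 to 6.40 RFI. By geometric mean RFI, Acetamide (2.03) and Methylcarbamate (2.06) ranked 9 and 10 from the lowest of the 21 groups. Diethylstilbestrol (DES) was the lowest with 1.22. Against the 12 controls the log2 fold change was -0.88 in Acetamide, -0.86 in Methylcarbamate and -0.87 in the pool, and it passed the test in each (limma, adjusted p = 0.0283, 0.0412 and 7.4e-04; 0.633%, 0.633% and 1.27% of analytes called). The highest control, at 6.40, was animal 1 of set 6. Without it the Acetamide call was lost (log2 fold change -0.82, adjusted p = 0.0595), while the Methylcarbamate and pooled calls passed with -0.79 (adjusted p = 0.0431) and -0.81 (adjusted p = 0.00242).

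The name of this analyte was not secure. In the authors' table of log2 values, the row called CDKN1B_P-S10 went the other way, by 0.98 in Acetamide and 0.30 in Methylcarbamate, whereas the row called CDKN1B gave -0.76 and -0.62. For a check over the 45 treated animals, the mean of each animal's group was first subtracted from both sources. The Spearman rho therefore describes differences between animals of the same group. By this measure, the log2 RFI of CDKN1B_P-S10 followed the table's row of the same name with a rho of 0.37. It followed the table's CDKN1B row with 0.83, the highest of all rows. The 2 other CDKN1B analytes of the RFI files stayed near the controls. The analyte deposited as total CDKN1B had a pooled log2 fold change of 0.02. Its name was not checked in this way and is no more secure, so total p27 is not read from it. The form phosphorylated at T187, a mark that precedes its degradation, had a pooled log2 fold change of -0.02. The values above therefore belong to the analyte deposited under this name and are not assigned to a particular form of p27.

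**Figure D3:**
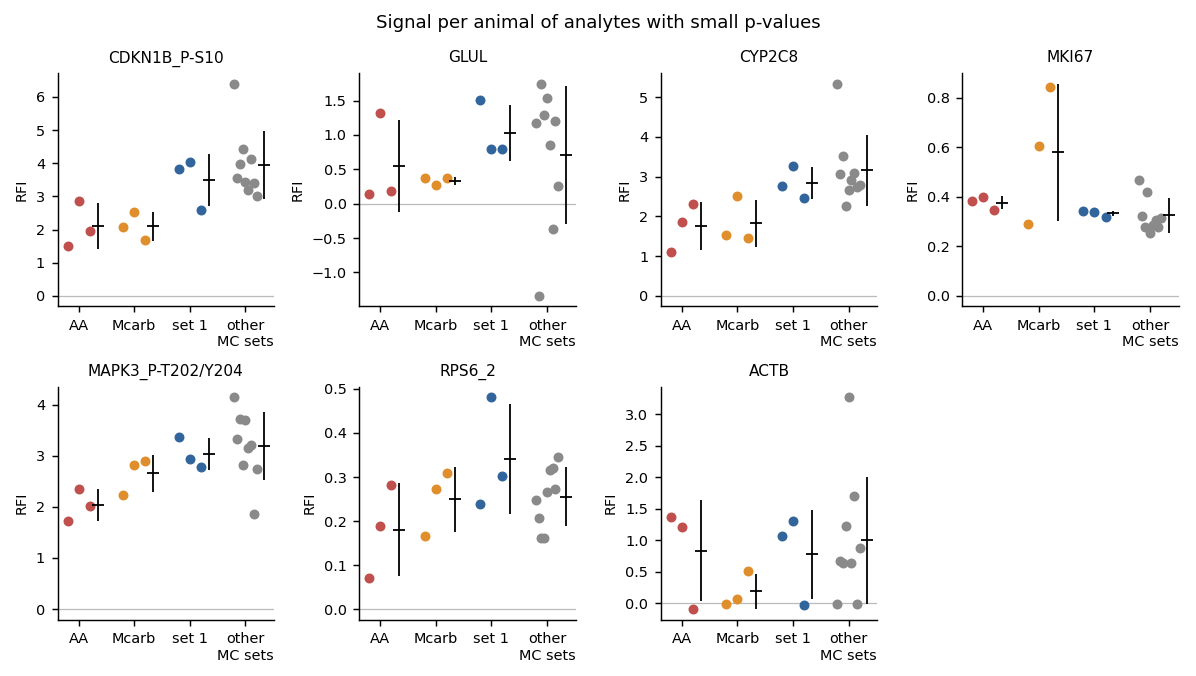
RFI per animal (y axis, linear) of 7 analytes with small p-values in a comparison, in Acetamide, Methylcarbamate, control set 1 and the 9 animals of the other 3 Methylcellulose (MC) sets. Each point is an animal, and the black mark and bar beside a group are its mean and SD. CDKN1B_P-S10 and CYP2C8 lie mostly below, and GLUL and ACTB include values at or below 0.

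Glutamine synthetase and the P450 enzymes describe the metabolic side of the hepatocyte. Of the 15 analytes in the group of P450 enzymes and hepatocyte proteins, 0 passed the test. In the pool 4 were higher and 11 lower, compared with 68 higher and 90 lower over all analytes. The median log2 fold change was -0.06 against -0.02 over all analytes. GLUL, which makes glutamine from ammonia in the hepatocytes around the central vein and is a target of beta-catenin, had the lowest values. It read 0.136, 1.32 and 0.189 RFI in Acetamide, 0.368, 0.270 and 0.370 in Methylcarbamate and 1.501, 0.792 and 0.793 in control set 1.

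The Methylcarbamate animals were all below the controls in GLUL, and 2 of the 3 Acetamide animals were, with animal 2 within the control range. Log2 fold changes were -1.60 in Acetamide, -1.56 in Methylcarbamate and -1.58 in the pool, with a pooled 95% interval of -2.86 to -0.29 (limma, unadjusted p = 0.0174, adjusted p = 0.916). The signal was near background. Readings over the whole series went down to -2.28 RFI, the 12 Methylcellulose controls spanned -1.34 to 1.74, and all 6 treated animals lay within that span. Without animal 1 the Acetamide value was -0.97, and without animal 2 it was -2.61. By geometric mean of the readings above 0, Acetamide (0.324) and Methylcarbamate (0.3325) ranked 9 and 10 from the lowest of the 21 groups. C.I. Direct Black (CIDB) was the lowest with 0.0588.

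CYP2C8, named for a human enzyme that oxidizes fatty acids and drugs, read 1.11, 1.85 and 2.31 RFI in Acetamide, 1.52, 2.50 and 1.45 in Methylcarbamate and 2.77, 3.26 and 2.46 in control set 1. Acetamide animals were all below the controls, and 1 Methylcarbamate animal overlapped them by a small margin. The log2 fold change was -0.74 and -0.67, and for the pool -0.71 with a 95% interval of -1.42 to 0.01 (limma, unadjusted p = 0.0535, adjusted p = 0.998). Of the 6 treated animals 4 were below all 12 Methylcellulose controls. In geometric mean RFI, Acetamide (1.68) and Methylcarbamate (1.77) ranked 9 and 10 from the lowest of the 21 groups. Thioacetamide (TAA), the lowest compound, had 1.22, and corn oil control set 4 had 1.03.

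CYP2B6, the phenobarbital-inducible P450, was read by 3 antibodies. The third gave 33.0, 70.0 and 55.9 RFI in Acetamide, 53.6, 130 and 36.4 in Methylcarbamate and 94.1, 137 and 69.8 in the controls, with overlap in both compounds and a pooled log2 fold change of -0.77 (95% interval -1.62 to 0.08). The first and second antibodies gave pooled values of -0.10 (95% interval -0.71 to 0.50) and -0.05 (95% interval -0.30 to 0.21). All 3 intervals overlapped, and a difference between the antibodies was not tested. With the first antibody, Methylcarbamate animal 1 read -0.116 RFI and was set to missing, so its pooled value leaves out the lowest treated reading. CYP2E1, which oxidizes ethanol and other small molecules, had the highest value of the group. Its second antibody read 6.43, 5.07 and 6.96 RFI in Acetamide, 4.52, 13.1 and 6.77 in Methylcarbamate and 3.51, 7.85 and 4.07 in the controls. These ranges overlapped, with a pooled log2 fold change of 0.48 (95% interval -0.37 to 1.32) and 0.41 by its first antibody.

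In the beta-catenin pathway, which sets the zones of metabolism along the liver lobule, 0 of 9 analytes passed the test and the pooled median was -0.02. Beside GLUL, the other 8 stayed close to the controls in the pool, and beta-catenin itself (CTNNB1) had the highest value with 0.11 (95% interval -0.31 to 0.53). Its RFI was 2.34, 3.13 and 2.74 in Acetamide, 1.91, 2.57 and 3.01 in Methylcarbamate and 2.35, 2.67 and 2.18 in the controls. The pathway's kinase GSK3B had a pooled value of -0.02.

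Growth factor receptors and their adaptors gave 11 analytes, with 0 past the test, 4 higher and 7 lower in the pool and a median of -0.04. MET, the hepatocyte growth factor receptor, had the lowest value. It read 0.520, 0.543 and 0.561 RFI in Acetamide, below the 0.583, 0.730 and 0.607 of the controls, and 0.431, 0.624 and 0.388 in Methylcarbamate, where 1 animal overlapped. Its pooled log2 fold change was -0.34 (95% interval -0.95 to 0.27). ERBB2, a partner of the other epidermal growth factor receptors, had the highest value with 0.25 (95% interval -0.33 to 0.83).

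The ERK cascade carries growth signals from RAF through MEK to the ERK kinases. Of its 14 analytes, which cover 9 gene symbols, 0 passed the test. In each compound 11 were lower, with medians of -0.12 in Acetamide and -0.08 in Methylcarbamate. Over all 158 analytes, 95 were lower in Acetamide and 81 in Methylcarbamate, with medians of -0.03 and -0.00. The active form of ERK1, MAPK3_P-T202/Y204, read 1.72, 2.36 and 2.01 RFI in Acetamide, 2.23, 2.82 and 2.90 in Methylcarbamate and 3.37, 2.94 and 2.77 in control set 1.

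Acetamide animals were all below the controls in phosphorylated ERK1, and Methylcarbamate animals overlapped them. Phosphorylated ERK1 had a log2 fold change of -0.58 in Acetamide with a 95% interval of -1.07 to -0.10 (limma, unadjusted p = 0.0196, adjusted p = 0.993) and -0.20 in Methylcarbamate with an interval of -0.68 to 0.29. Total ERK1 (MAPK3) had -0.00 and -0.09. Only 1 of the 6 treated animals read below all 12 Methylcellulose controls, which spanned 1.87 to 4.15. At the ends of the group, the ERK target ELK1 had a pooled value of -0.42 (95% interval -0.98 to 0.13) and the ERK phosphatase DUSP4 had 0.22 (95% interval -0.22 to 0.67).

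Among the stress kinases, which answer to cell damage and cytokines, 0 of 9 analytes passed the test and the pooled median was -0.01. The kinase JNK1 (MAPK8) had the lowest pooled value with -0.21 and the active form of p38 (MAPK14_P-T180/Y182) the highest with 0.25 (95% interval -0.28 to 0.79). JUN, a transcription factor that JNK activates, read 0.218, 0.227 and 0.360 RFI in Acetamide, 0.265, 0.265 and 0.370 in Methylcarbamate and 0.193, 0.247 and 0.280 in the controls. The groups overlapped, and its pooled value was 0.23 (95% interval -0.18 to 0.63).

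AKT, MTOR and ribosomal protein S6 link nutrients and insulin to protein synthesis. Of 13 analytes 0 passed the test, with 6 higher and 7 lower in the pool and a median of -0.06. The 3 lowest were all forms of ribosomal protein S6, a part of the small ribosomal subunit. Its second antibody read 0.0706, 0.188 and 0.281 RFI in Acetamide, 0.167, 0.272 and 0.309 in Methylcarbamate and 0.238, 0.481 and 0.303 in the controls.

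In each group the S6 values overlapped the controls. The log2 fold change for RPS6_2 was -1.07 in Acetamide (95% interval -2.13 to -0.02; limma, unadjusted p = 0.0455, adjusted p = 0.993) and -0.44 in Methylcarbamate. Without animal 1, the Acetamide value was -0.51. Of the 6 treated animals, 1 read below all 12 Methylcellulose controls, which spanned 0.162 to 0.481, and 5 lay within that span. By geometric mean RFI, control set 1 had 0.326, the highest of the Methylcellulose sets, and sets 2, 5 and 6 had 0.311, 0.239 and 0.203. Acetamide had 0.155 and Methylcarbamate 0.241. The S6 form phosphorylated at S235/S236, the readout of S6 kinase activity, had -0.995 in Acetamide and -0.39 in Methylcarbamate, and the first S6 antibody had -0.72 and -0.38.

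Energy and cAMP kinases gave 4 analytes with 0 past the test and a pooled median of -0.03. The energy sensor AMPK (PRKAA1) read 0.302, 0.356 and 0.418 RFI in Acetamide, 0.307, 0.439 and 0.350 in Methylcarbamate and 0.437, 0.516 and 0.416 in the controls. A single animal of each compound lay within the control range, and the pooled log2 fold change was -0.34 (95% interval -0.74 to 0.06). Its active form, phosphorylated at T172, had -0.02. CREB1, the transcription factor that answers to cAMP, was the highest of the 4 with 0.01.

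Of 12 cell cycle analytes 0 passed the test, 6 were higher and 6 lower in the pool, and the median was -0.00. MKI67, which is found in dividing cells and is absent from resting ones, read 0.385, 0.398 and 0.346 RFI in Acetamide, 0.292, 0.607 and 0.843 in Methylcarbamate and 0.342, 0.337 and 0.320 in control set 1. Acetamide animals lay just above the controls, while 2 Methylcarbamate animals lay well above all 12 Methylcellulose controls (0.255 to 0.469) and the other lay below control set 1.

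The log2 fold change of MKI67 was 0.17 in Acetamide (95% interval -0.34 to 0.69) and 0.67 in Methylcarbamate (95% interval 0.16 to 1.19; limma, unadjusted p = 0.0115, adjusted p = 0.607). Without Methylcarbamate animal 1 it was 1.10 and passed the test (adjusted p = 0.0104), and without animal 3 it was 0.34. Against the Methylcellulose controls without animal 1 of set 6 it was 0.77 and also passed (adjusted p = 0.0431), which it did not against all 12. The Methylcarbamate mean therefore rested on 2 of its 3 animals. By geometric mean RFI, Methylcarbamate was the highest of the 21 groups of the series with 0.531, ahead of methapyrilene (MPy) with 0.422, but its 3 animals spanned that neighbor's level. The mitotic kinase AURKA phosphorylated at T288 had 0.37 in Methylcarbamate and -0.02 in Acetamide, and cyclin D1 (CCND1) had -0.15 and -0.09.

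Of the 7 analytes of apoptosis and DNA damage 0 passed the test, with 4 higher and 3 lower in the pool and a median of 0.01. MCL1, a survival factor, had the highest pooled value with 0.10. BAX, which opens the mitochondrial membrane in dying cells, read 0.561, 0.616 and 0.738 RFI in Acetamide, 0.536, 0.615 and 0.787 in Methylcarbamate and 0.546, 0.616 and 0.627 in the controls. The groups overlapped, and its pooled log2 fold change was 0.10.

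STAT and NF-kappaB signaling gave 13 analytes, of which 0 passed the test. In the pool 10 were higher, compared with 68 of all 158 analytes. The pooled median was 0.04 against -0.02 over all analytes. STAT3, which carries interleukin-6 signals in the acute phase response, read 2.45, 2.45 and 2.56 RFI in Acetamide, 1.71, 2.23 and 3.49 in Methylcarbamate and 1.64, 2.27 and 1.94 in the controls. Acetamide animals were all above the controls and Methylcarbamate animals overlapped them, with log2 fold changes of 0.36 (95% interval -0.07 to 0.80) and 0.29 (95% interval -0.14 to 0.73). The forms of STAT3 phosphorylated at Y705 and S727 had pooled values of 0.06 and -0.11. JAK1 and JAK2, the kinases upstream, had 0.04 and 0.03.

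Of 11 analytes of histones and chromatin enzymes 0 passed the test, and the medians were -0.11 in Acetamide and 0.03 in Methylcarbamate. Histone H3 (HIST1H3A) had the highest pooled value with 0.46 (95% interval -0.70 to 1.62), from 2.34, 4.31 and 4.78 RFI in Acetamide, 2.93, 7.77 and 5.43 in Methylcarbamate and 2.69, 3.83 and 2.88 in the controls. Its form phosphorylated at S28 had the lowest with -0.14. The form phosphorylated at S10, a mark of mitotic chromatin, read 0.107, 0.113 and 0.146 RFI in Methylcarbamate, which was above the 0.0842, 0.0977 and 0.107 of the controls by a margin smaller than the last digit printed.

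**Figure D4:**
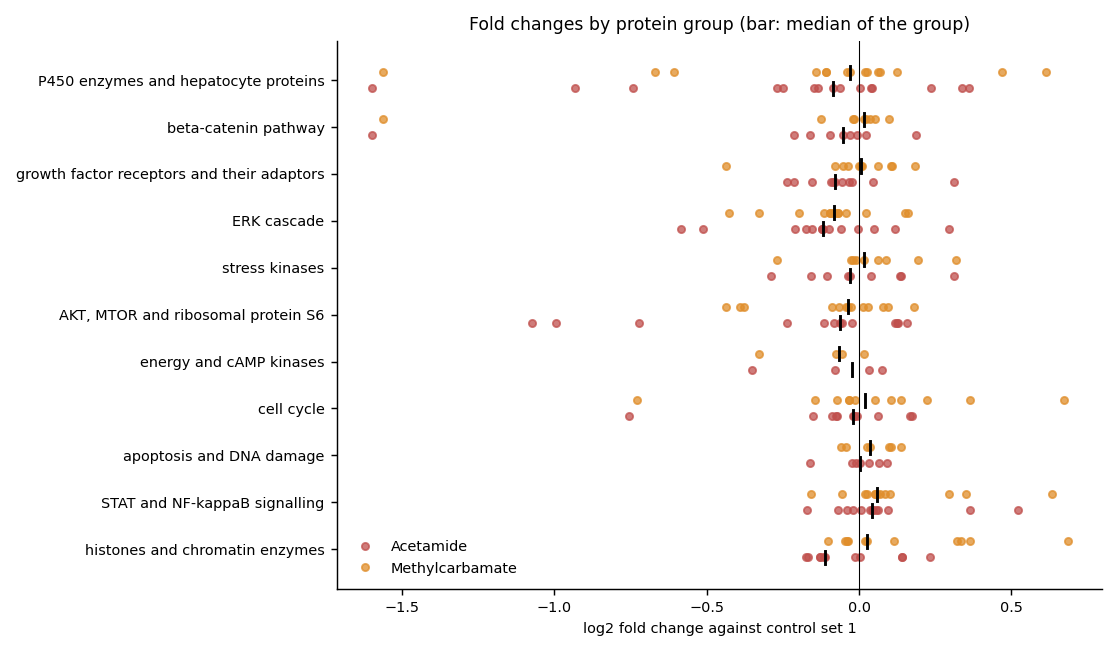
Log2 fold change against control set 1 (x axis) of every analyte in 11 protein groups (y axis), for Acetamide (red) and Methylcarbamate (orange), with GLUL drawn in both groups it belongs to. Black bars mark the median of a group, and these lie close to 0 throughout, with GLUL, the S6 forms and CDKN1B_P-S10 among the points farthest from it.

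The study named GLUL, JUN, CDKN1B and CYP2C8 for its protein signature, and because it chose them on these samples their direction is no independent evidence. They were read by 6 analytes. In the pool 0 passed the test, 2 were higher and 4 lower, with a median of -0.36 between CYP2C8 (-0.71) and CDKN1B phosphorylated at T187 (-0.02).

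Counted by separation alone, 11 analytes of Acetamide (6.96%) did not overlap with control set 1. MET, CYP2C8, and the phosphorylated forms of ERK1 and JNK1 were lower (4 analytes, 2.53%), and among the 7 higher ones (4.43%) were CREB1, DUSP4, MKI67, PDK1 phosphorylated at S241, the second PPARA antibody and STAT3. In Methylcarbamate 6 analytes (3.8%) did not overlap. GLUL and CDKN1B_P-S10 were lower (2 analytes, 1.27%), and among the 4 higher ones (2.53%) were histone H2B (HIST1H2BB) and histone H3 phosphorylated at S10. The lists share their control animals. With 3 animals on each side, full separation also occurs without an effect, so the analytes named here are description only. Pooled, 1 analyte (0.633%) did not overlap.

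ACTB, the cytoskeletal actin often used as a loading control, is named because it had the fifth smallest p in Methylcarbamate. It read 1.37, 1.22 and -0.0880 RFI in Acetamide, -0.00860 and 0.0588 and 0.508 in Methylcarbamate and 1.06, 1.30 and -0.0259 in the controls. Values at or below 0 occurred in all 3 groups, so the signal was at background and no direction is read from it.

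**Figure D5:**
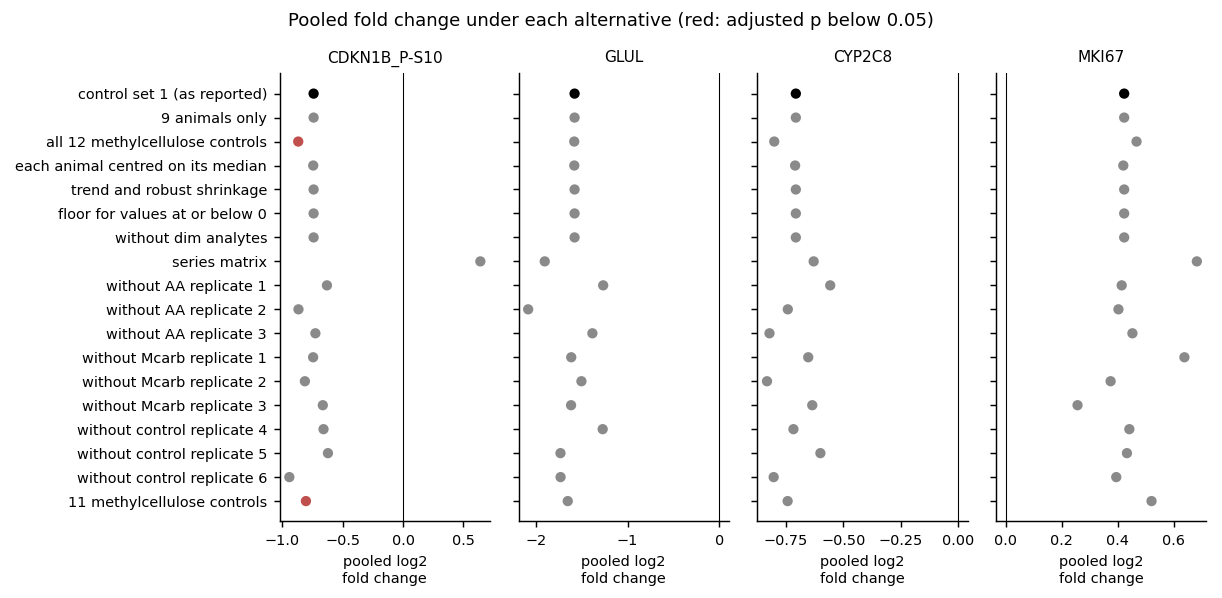
Pooled log2 fold change (x axis, a scale of its own in each panel) of CDKN1B_P-S10, GLUL, CYP2C8 and MKI67 under each way of processing (y axis). Red points passed the test, which CDKN1B_P-S10 did against all 12 Methylcellulose controls and against 11 of them. In the series matrix only the row named CDKN1B_P-S10, a name that was not secure, had the reverse sign. No other setting moved one of these 4 analytes across 0.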

How the data were processed

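Liver lysates of 63 rats were measured on ZeptoMARK reverse-phase protein arrays. The authors deposited the relative fluorescence intensity (RFI) of 158 analytes per animal, 104 total proteins and 54 modified forms. The study's methods describe a local background correction of each spot, a normalization over the array and a mean over replicate spots; whether a secondary-antibody blank was also subtracted from the RFI is not given in the sources used here. The authors also deposited a matrix of log2 values, per the methods log2 ratios to control medians with imputed gaps. Its column medians were -0.12 to 0.21 in the 9 animals, its direction was read as treated over control, and the offset of each column is unknown. It served as an alternative. 0 columns lacked a sample.

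RFI at or below 0 was set to missing and the rest log2 transformed, with no further scaling. Each analyte was fitted with a mean for every one of the 21 groups, in all 63 animals (limma 3.58.1, R 4.3.3). Two-sided p-values were adjusted over 158 analytes, with a threshold of 0.05. The fit was tested on simulated data with independent normal values, the same spread in every group and no shift of whole animals. It was therefore not tested under the animal-wide differences seen here. The p-values rest on the spread between animals of a group, estimated over all 21 groups. Intervals therefore also carry spread from compounds outside these comparisons. CYP2E1_1, the first CYP2E1 antibody, read 0.415 to 0.740 RFI in the 9 animals and down to 0.00448 in the series. Its Acetamide interval was -1.15 to 1.87. Arrays have no read depth, so precision rests on the number of animals and on this shared spread. Fitting the 9 animals alone gave 0 calls in each comparison. The pool is the mean of both compound means.

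Named analytes are the 5 with the smallest p per comparison, those called under an alternative that keeps all animals, the highest and lowest pooled fold change of each protein group, and the study's signature proteins; HNF4A, single group members and analytes named for not overlapping the controls were chosen after their values were seen. Compounds, groups and lists were chosen with earlier results of these data known. Alternatives changed the reference animals, animals fitted, centring, shrinkage, treatment of low values and the table used, and left out each animal in turn. Some analytes that the rule names are not reported here.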

Additional observations from a re-analysis of the deposited data

How the results depend on the processing

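Counts of called analytes were 0 in each comparison under all alternatives but these. Against all 12 Methylcellulose controls 1 analyte was called in Acetamide, 1 in Methylcarbamate and 2 in the pool, and against 11 of them (without animal 1 of set 6, chosen after seeing the data) 0, 2 and 2. Leaving out each animal in turn gave 0 to 0 calls in Acetamide, 0 to 1 in Methylcarbamate and 0 to 0 in the pool; the 1 call was MKI67 without Methylcarbamate animal 1. Without Acetamide animal 1, 0 analytes of that compound had an unadjusted p below 0.05, against 5. For CDKN1B_P-S10 the row of that name in the authors' matrix had the reverse sign, with 0.98 in Acetamide, 0.30 in Methylcarbamate and 0.64 in the pool. Because the name was not secure, the rows compared may not be the same analyte. The matrix row called CDKN1B was lower in both compounds. For ACTB, whose signal fell to 0 or below in some animals, no direction was read. The sign of ACTB turned in the matrix from -2.77 to 0.35 in Methylcarbamate and from -1.32 to 0.47 in the pool. In Acetamide it turned from 0.14 to -0.0081 without control animal 4 (-0.0081 to 0.28 over single omissions). The cause was not tested. Of 360 recomputed values that had a test, 345 kept direction and side of the threshold and 9 newly passed it. No paired analysis was possible because the treated animals carry numbers 1 to 3 and those of control set 1 carry 4 to 6, so compared groups share none.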
